A study of Mus musculus with 4 samples.

Results

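Marginal nuclei of the adult mouse stria vascularis (SV) are described here from a capture of single nuclei, with marginal whole cells of the same tissue beside them. They were chosen by the counts of unique molecular identifiers (UMIs, each standing for 1 captured RNA molecule) in a barcode, the tag that marks 1 droplet. A barcode was selected on at least 200 genes, at least 5% of UMIs from Malat1, and at least 5 UMIs and 0.3% of UMIs from the sum of Lrp2, Kcnq1, Esrrb and Atp13a5. This sum had to be at least 3 times that of the intermediate cell genes Met, Pax3, Nrp2 and Pde1c and at least 3 times that of the basal cell genes Cldn11, Tjp1, Col11a2 and Nr2f2, with at most 1 UMI of Slc26a4 and P2rx2 together. The rule selected 2809 of the 11057 barcodes of the nucleus capture, which is 1 of the 4 captures and holds most of the 14387 barcodes of the series.

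All captures came from CBA/J mice at postnatal day 30, without treatment or genetic change, and each was 1 suspension pooled from several animals. The 3 cell captures were made by trypsin digestion at 37°C and the nucleus capture by cold lysis in detergent, so that preparation, suspension and library cannot be told apart. The cell captures held 392, 1358 and 1580 barcodes with 2811309, 8113494 and 8340882 UMIs, and the nucleus capture held 22332501 UMIs. Of the barcode sequences of the nucleus capture, 7, 26 and 32 also occurred in cell captures 1, 2 and 3.

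Marginal cells form the epithelial layer of the SV that faces the endolymph, the potassium-rich fluid that bathes the tops of the hair cells. They take up potassium at their basolateral side through the cotransporter encoded by Slc12a2 and the sodium pump, and secrete it at the apical side through the channel formed by Kcnq1 and Kcne1. Intermediate cells, which are melanocyte-like, and basal cells make up the other layers of the SV.

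The same genes defined the nuclei set beside them. The mirrored rule, with the 4 intermediate or basal genes in place of the marginal genes, gave 1124 intermediate nuclei and 48 basal nuclei. As background served 252 barcodes of the nucleus capture with blood lineage transcripts, called nuclei here. Their median Malat1 share was 3.03%, below the 5% limit of the other classes. In the cell captures, where intermediate transcripts were found in most barcodes, a cell was taken as marginal when its marginal sum was at least 5 UMIs and 0.03% of its UMIs and at least equal to the intermediate and basal sums. This gave 26, 113 and 68 marginal cells in captures 1, 2 and 3. Since the nuclei are a single library, no p-value is given for them, and the exact 95% intervals printed for nuclei cover counting error only.

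The marginal nuclei were shallow. Their median was 1435 UMIs, with a range from 976 to 12926, and 854 genes, against medians of 10159.5, 9288 and 8284.5 UMIs in the marginal cells of captures 1, 2 and 3. Malat1, a noncoding RNA kept in the nucleus, made up a median of 14.7% of UMIs in marginal nuclei and 0.957%, 1.07% and 0.928% in marginal cells. The rule for cells set no limit on Malat1, and its lower quartile in marginal cells was 0.0208%, 0.0381% and 0.0263%. The part of cells with little Malat1 in the ratios of nuclei to cells was not tested. Mitochondrial transcripts made up a median of 1.82% in nuclei, and 30.6%, 34.2% and 33.8% in cells. In 10% of marginal nuclei the mitochondrial share was 14.2% or more. Near the limits of the rule, 102 members had a marginal sum of exactly 5 UMIs and 46 barcodes missed only by having 4. A Malat1 share of 5% to under 6% was found in 103 members, and 76 barcodes missed only by a share of 4% to under 5%. All 471 barcodes that failed the Malat1 limit alone had a median Malat1 share of 1.92% and a median mitochondrial share of 28.4%.

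Marginal genes that the rule did not use were also high in the nuclei. Levels are given as CPM, the UMIs of a gene scaled to a total of 1000000 outside mitochondrial genes, over the genes of the nucleus list when nuclei are compared with nuclei, and over the 27873 genes listed in all captures when nuclei are compared with cells. They compare 1 gene between classes and not genes with each other. Kcne1, the accessory subunit of the Kcnq1 channel, stood at 936 CPM in marginal nuclei, 215 in intermediate nuclei and 193 in basal nuclei. Ror1, an orphan receptor of the Wnt pathway whose human counterpart is a deafness gene, stood at 910, 11.5 and 38.7 CPM. The ratio of marginal to intermediate nuclei was 79.0 for Ror1, with an interval from 51.6 to 128. All 10 further marginal genes of a list, the rule gene Atp13a5 left out (Kcne1, Abcg1, Heyl, Hgf, Eya4, Epha5, Tacr3, Kcnab1, Slc6a17 and Gpr176), were at least 2 times higher in marginal than in intermediate nuclei, and 9 of them were at least 2 times higher than in both other classes. Across the 9189 genes with at least 50 UMIs in marginal nuclei, 18.4% were at least 2 times higher than in intermediate nuclei and 5.04% higher than in both. Only 1 of the 10 had 50 UMIs in intermediate nuclei. Since the rule chose nuclei within this contrast, the ratios describe the classes and carry no test. Unless stated otherwise, list genes below were counted from 50 UMIs in marginal nuclei, so these counts are likewise descriptions.

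Markers of other cell types were present in marginal nuclei, most of all erythroid and intermediate genes. The 14 intermediate genes that the rule did not use, of which 11 had at least 50 UMIs, summed to 2775 CPM in marginal nuclei and 39530 in intermediate nuclei, led by Dct with 1667 CPM. Tyrp1 was at 0 but had only 1 UMI in intermediate nuclei too. In marginal cells of captures 1, 2 and 3, where the limit on intermediate genes was looser, they summed to 12970, 10720 and 8777 CPM. The 8 basal genes outside the rule summed to 256 CPM in marginal and 3032 in basal nuclei, and the rule gene Cldn11 stood at 211 CPM in marginal nuclei, with none of the 12 basal genes at 0. The sums were 304 CPM for spindle and root cell genes, mostly Dpp10 at 215, 135 for fibrocytes, 28.2 for endothelium, 59.9 for macrophages, 38.9 for B lineage and 211 for Schwann cells. In the basal nuclei Schwann cell genes summed to 5689 CPM and fibrocyte genes to 3109. The basal class used for comparison therefore also carried transcripts of other cell types. Neutrophil genes summed to 595 CPM against 145900 in nuclei with blood lineage transcripts. The latter value is high by construction, since S100a8, S100a9, Elane and Mpo of this list helped to choose that class. The Reissner's membrane list summed to 619 CPM in marginal, 194 in intermediate and 103 in basal nuclei, mostly Meis2 at 462. Erythroid genes summed to 7886 CPM in marginal, 5113 in intermediate and 3948 in basal nuclei and 15090 in nuclei with blood lineage transcripts, led by Hbb-bs at 3973 CPM. In marginal cells they summed to 819, 861 and 18450 CPM, so that capture 3 stood apart. The part of other cell types and of free RNA in any level was not tested.

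The 3 rule genes among the markers were high by construction. Lrp2, which encodes the endocytic receptor megalin, stood at 4986 CPM in marginal, 357 in intermediate and 387 in basal nuclei. Kcnq1, the pore of the potassium channel, stood at 1845, 90.5 and 181 CPM, and Esrrb, an orphan nuclear receptor needed for endolymph secretion, at 1329, 41.1 and 90.3 CPM. These values chose the nuclei and are given as a description.

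**Figure D1:**
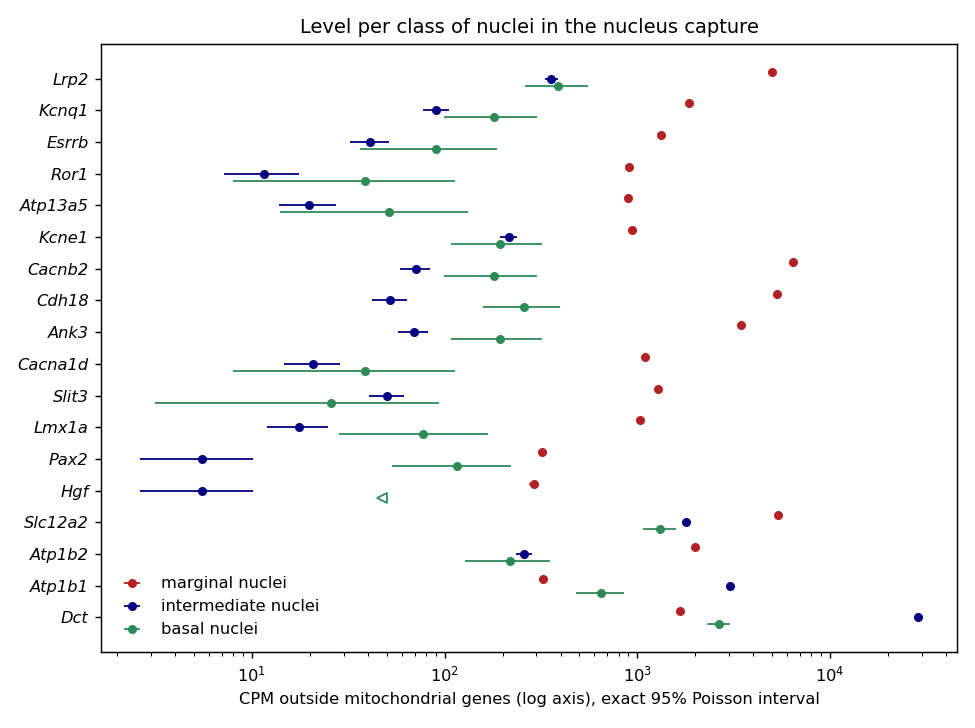
Level of 18 genes in marginal (red), intermediate (blue) and basal (green) nuclei on a log axis of CPM, with exact 95% Poisson intervals. The open triangle is the upper bound of a count of 0. The red points lie to the right of both others in all rows but those of Atp1b1 and Dct, and basal intervals are wide because only 48 nuclei were basal.

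Outside the rule genes, the 15 genes with the largest ratios to the higher of the other classes included 3 calcium channel subunits. Cacnb2, a beta subunit of voltage-gated calcium channels, stood at 6447 CPM in marginal nuclei, 70.7 in intermediate and 181 in basal nuclei, a ratio of 91.2 to intermediate nuclei. Cacna1d, the pore of an L-type calcium channel, stood at 1099, 20.8 and 38.7 CPM. Cacna2d1, an auxiliary calcium channel subunit, stood at 847, 23.0 and 25.8 CPM. All 3 were therefore more than 20 times higher than in either other class. For Cacna1d and Cacna2d1 the basal level lay at or under 38.7 CPM, the floor of 3 UMIs, so their ratio to basal nuclei is uncertain. Of the 26 calcium channel subunits found by symbol, 8 had at least 50 UMIs, 4 of them, which include the 3 above, were at least 2 times higher than in both other classes, beside 5.04% of all genes, and the 26 summed to 9314 CPM in marginal, 296 in intermediate and 890 in basal nuclei. Only 3 of the 26 reached 50 UMIs in intermediate nuclei. The 3 above were named for their ratios in this contrast, so the count is a description. In cells edgeR called 4 of 7 tested subunits higher and 1 lower, beside 16.9% and 16.8% of all genes. The remaining gene of the 4 in nuclei, Cacnb4, was picked after its values were seen and stood at 787, 76.7 and 0 CPM.

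Cdh18, a type II cadherin, stood at 5338 CPM in marginal, 52.1 in intermediate and 258 in basal nuclei. Slit3, a secreted guidance protein, stood at 1283, 50.4 and 25.8 CPM. Fgf13, an intracellular member of the fibroblast growth factor family that binds sodium channels, stood at 884, 24.7 and 25.8 CPM. Ank3, ankyrin-G, which anchors channels to the spectrin skeleton, stood at 3440, 69.1 and 194 CPM. Kcnma1, a calcium-activated potassium channel, and Slc41a3, a magnesium transporter, reached 808 and 561 CPM and were at least 14 times higher than in each other class. The ratios to basal nuclei again rest on few basal UMIs. The rule also named Kctd8, Ccser1 and the noncoding transcripts Gm29266, Gm38048 and BC006965, the last at 1369 CPM in marginal, 34.0 in intermediate and 25.8 in basal nuclei.

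Whether these genes also marked marginal cells was tested in the cell captures, which took no part in the choice of nuclei. UMIs were summed per capture and class, and edgeR compared marginal cells with the mean of intermediate and basal cells over 7842 genes. It called 1322 genes higher (16.9%) and 1315 lower (16.8%) at an adjusted p of 0.05. Without capture 2 the counts were 796 and 686. Of the 463 genes at least 2 times higher in marginal nuclei than in both other classes, a count that was 235 among nuclei with a mitochondrial share under 2%, 454 were listed in the cell captures and 366 could be tested. Higher levels in marginal cells were called for 339 of the 366 (335 of 362 without the 4 rule genes) and lower levels for 2, with a median log2 fold change of 2.02 against -0.03 over all tested genes. The remaining 88 had too few UMIs in cells to be tested. A gene could enter the test through its level in marginal cells alone, so the share of the 366 is a description.

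Among the named genes, Cacnb2 rose on the log2 scale by 4.27 ± 0.27 (adjusted p = 2.5e-15, edgeR, 3 captures), where ± gives the standard error. Ank3 rose by 3.43 ± 0.12 (adjusted p = 7.7e-22, edgeR), Cacna1d by 3.36 ± 0.25 (adjusted p = 2.2e-13, edgeR) and Slc41a3 by 4.12 ± 0.18 (adjusted p = 4.3e-18, edgeR). Ror1, which chose no cells, rose by 4.25 ± 0.60 (adjusted p = 5.2e-07, edgeR). Slit3 rose by 4.07 ± 0.57 (adjusted p = 4.0e-07, edgeR), Cacna2d1 by 3.27 ± 0.24 (adjusted p = 1.1e-13, edgeR) and Kcnma1 by 3.02 ± 0.49 (adjusted p = 5.2e-06, edgeR). Fgf13, Kctd8, Ccser1, Cdh18 and Gm29266 could not be tested in cells and BC006965 and Gm38048 were on the nucleus list alone, so that their marginal pattern rests on 1 library of nuclei. The cells were chosen by Lrp2, Kcnq1, Esrrb and Atp13a5, and no test of these 4 is given.

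**Figure D2:**
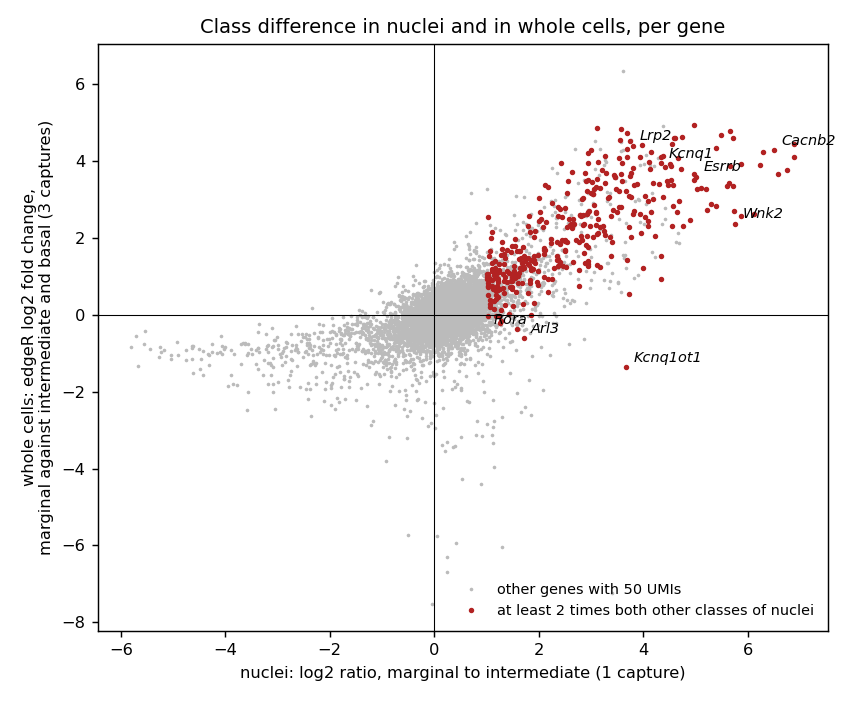
Each point is 1 gene with at least 50 UMIs in marginal nuclei that edgeR could test in whole cells. The x axis is the log2 ratio of marginal to intermediate nuclei (1 capture), the y axis the edgeR log2 fold change of marginal against intermediate and basal whole cells (3 captures), and red marks genes at least 2 times higher in marginal nuclei than in both other classes. Kcnq1ot1 lies alone at the lower right, with a log2 fold change of -1.36 in cells.

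The machinery of potassium secretion was seen in both preparations but not in the same proportion. Of the 17 genes of the list other than Kcnq1, which is a rule gene, 14 had at least 50 UMIs in marginal nuclei and 10 were at least 2 times higher than in intermediate nuclei, beside 18.4% of all genes. EdgeR called 9 of 15 higher and 4 lower in marginal cells, beside 16.9% and 16.8% of all tested genes. Slc12a2 stood at 5512 CPM over shared genes in marginal nuclei and at 8604, 9458 and 10936 in the 3 captures of marginal cells, and rose in marginal cells by 1.67 ± 0.11 on the log2 scale (adjusted p = 4.1e-15, edgeR). Kcne1 stood at 959 CPM in nuclei and at 1848, 1699 and 1592 in cells. Atp1b2, a beta subunit of the sodium pump, stood at 2033 CPM in nuclei and 5886, 5056 and 5200 in cells. For all 3 genes the nuclei lay below every capture of cells.

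The 2 beta subunits of the pump parted between the classes. Atp1b2 was 7.69 times higher in marginal than in intermediate nuclei and rose in marginal cells by 4.21 ± 0.32 on the log2 scale (adjusted p = 0.00043, edgeR). Atp1b1 stood at 325 CPM in marginal and 3021 in intermediate nuclei, and fell in marginal cells by 0.89 on the log2 scale with a standard error of 0.10 (adjusted p = 1.1e-08, edgeR).

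Of the 14 genes of the potassium list other than Kcnq1 with at least 50 UMIs, 2, Wnk2 and Nedd4l, were at least 4 times the highest cell capture in nuclei, a share near the 12.7% of all shared genes. Wnk2, a kinase of the chloride-sensing family, stood at 865 CPM in marginal, 15.9 in intermediate and 181 in basal nuclei, and at 886 CPM over shared genes in nuclei against 131, 105 and 155 in cells. It rose in marginal cells by 2.37 ± 0.20 on the log2 scale (adjusted p = 4.8e-12, edgeR). Of its relatives, Wnk1 stood at 192 CPM in nuclei and 231, 287 and 190 in cells, Wnk4 at 35.0 CPM against 50.2, 40.8 and 51.8, and Wnk3 at 8.25 CPM against 0 in all captures. Stk39, the kinase SPAK through which Wnk kinases act on the cotransporter, stood at 1223 CPM in nuclei and 321, 316 and 323 in cells. The related kinase gene Oxsr1 had 0 UMIs in every barcode of the nucleus capture and 35.2, 43.7 and 39.5 CPM in marginal cells, and its annotation overlaps Slc22a14. Bsnd, which encodes barttin, stood at 71.5 CPM in nuclei and 100, 67.0 and 74.0 in cells. Sgk1, an aldosterone-induced kinase, stood at 324 CPM in nuclei, below the 552, 743 and 716 of the cell captures, whereas its target Nedd4l, a ubiquitin ligase, stood at 285 CPM against 15.1, 36.4 and 24.7.

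The comparison of preparations asked which marginal genes were better seen in nuclei. Of 8915 shared genes with at least 50 UMIs in marginal nuclei, 1135 (12.7%) were at least 4 times the level of the highest cell capture, with a floor of 3 UMIs over the pooled cells, and of 4429 genes with at least 50 UMIs in marginal cells, 454 (10.3%) were at most 0.25 times the level of the lowest capture in nuclei. Among the 454 genes of marginal nuclei that were shared, 151 (33.3%) were better seen in nuclei. The median log2 ratio of nuclei to the mean of the captures was 1.47 for these genes and 0.26 over all genes with at least 50 UMIs. Since these genes were chosen for a high level in the same library of nuclei, both values are a description. For 22 of the 151, the marginal cells of all 3 captures together held 0 UMIs.

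Ror1 was the marker that differed most. It stood at 932 CPM over shared genes in marginal nuclei and at 40.2, 18.9 and 29.6 in the captures of marginal cells, which is 23.2 times the highest capture. Kcnq1 stood at 1890 CPM in nuclei and 512, 430 and 541 in cells, and Esrrb at 1361 CPM against 583, 653 and 644. Lrp2 was closest, at 5107 CPM against 3169, 3044 and 3176. All 4 markers lay above every cell capture in the nuclei, and only Ror1 passed the limit of 4 times. The limits on the marginal sum differed between nuclei and cells, and 3 of the 4 markers enter that sum. A limit on Malat1 was set for nuclei alone.

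Cdh18 had one of the largest gaps between nuclei and cells. It stood at 5468 CPM over shared genes in marginal nuclei and at 10.0, 1.46 and 12.3 in marginal cells, 443 times the highest capture, and the 3 cell captures together held 19 UMIs of it over all their barcodes. The gene spans 925397 bases at chr15:22549022-23474418 (mm10, plus strand), of which 4554 are exonic. Cacnb2, at chr2:14603088-14987908 (plus strand), stood at 6604 CPM in nuclei and 116, 140 and 64.2 in cells. Eya4, a transcriptional coactivator with a phosphatase domain and a deafness gene, at chr10:23102963-23350786 (minus strand), stood at 380 CPM in nuclei and 0, 4.37 and 4.94 in cells. In the 3 genes the nuclei exceeded every cell capture by more than 40 times.

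**Figure D3:**
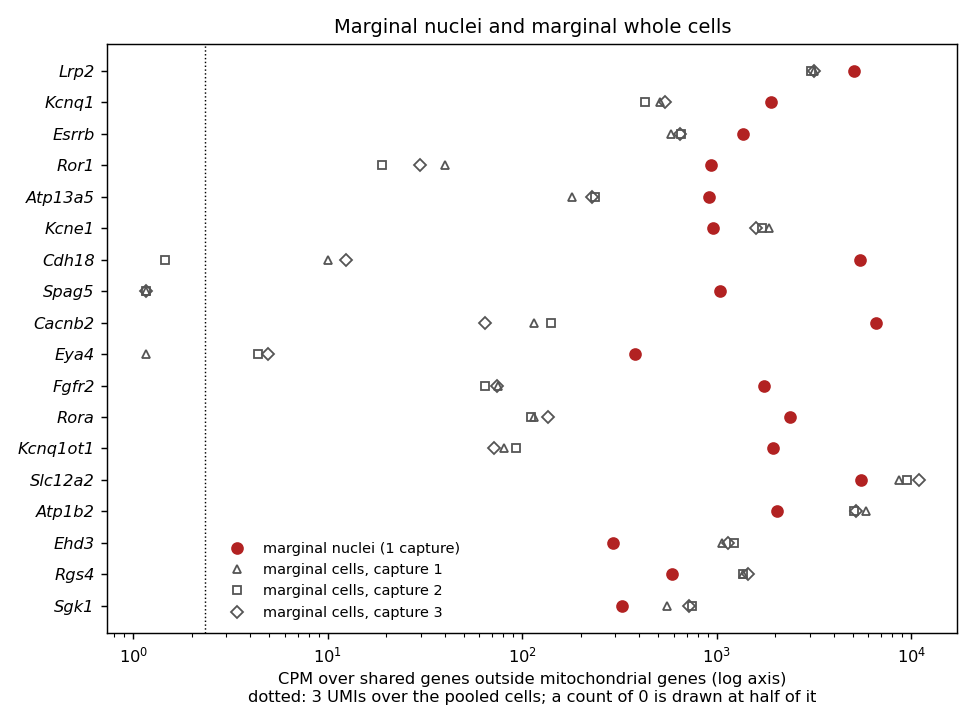
CPM over shared genes on a log axis for 18 genes in marginal nuclei (red, 1 capture) and in the marginal cells of the 3 captures (open symbols), with a count of 0 drawn left of the dotted line, which marks 3 UMIs over the pooled cells. The cell captures lie close together for abundant genes. Nuclei lie to the right for Cdh18, Cacnb2, Ror1 and Rora and to the left for Slc12a2, Kcne1, Atp1b2, Ehd3, Rgs4 and Sgk1.

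Several of the largest gaps involved annotations that share a place or are seldom seen in cells. Spag5, a mitotic spindle gene, stood at 1042 CPM in marginal nuclei and at 0 in all captures of marginal cells, with 18 UMIs over all barcodes of the cell captures. It was only 2.75 times higher in marginal than in intermediate nuclei. Sycp3, a gene of the meiotic chromosome axis, stood at 509 CPM in nuclei and 0 in marginal cells, and lies opposite Chpt1. Astn2 stood at 771 CPM in nuclei and 5.02, 0 and 0 in cells, and lies opposite Trim32. Gm26763, Gm43713, C230088H06Rik, Rex2, Gm21954, 4930556J24Rik and Gm26573 also overlap a gene on the opposite strand, as do Samd12 and Ccser1. Of the 151 genes, 106 overlapped a gene on the opposite strand and 34 overlapped no other gene. No share of all genes is given for the opposite strand alone, so the 106 are a description. Of all 1135 genes better seen in nuclei 77.8% overlapped another gene on either strand, against 59.2% of all genes with at least 50 UMIs in marginal nuclei. The study's methods give Cell Ranger with its default settings and do not say whether strand or introns were used in counting, so that reads of such partners may not have been told apart. Among all 3632 genes with at least 50 UMIs and no overlapping gene, 247 (6.80%) were better seen in nuclei.

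Most genes at 0 in the nucleus capture overlapped another gene on the same strand. Of the 4429 genes with at least 50 UMIs in marginal cells, 53 had 0 UMIs in every barcode of the nucleus capture, and 51 of the 53 (96.2%) overlapped another gene, against 57.4% of the 4429 on either strand. All 51 had a partner on the same strand and 19 of the 53 one on the opposite strand. Rpl10-ps3 and Gm5900 had no partner, and no share of all genes is given for the same strand alone. Cox4i1, a subunit of cytochrome c oxidase, stood at 1889, 2081 and 1683 CPM in marginal cells and at 0 in nuclei, and overlaps Gm20388 on the same and Emc8 on the opposite strand. These 53 are among the 454 genes lower in nuclei, and the level of the 51 in nuclei is therefore not known. For Rpl10-ps3 and Gm5900 the count of 0 is not read as a low level either.

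Of the 15 genes of the list of receptors and signalling with at least 50 UMIs, the rule gene Met left out, 8 were at least 4 times the highest cell capture, beside 12.7% of all shared genes. Only 8 genes of the list reached 50 UMIs in marginal cells, so that several entered through nuclei and the count is a description. Fgfr2, a fibroblast growth factor receptor, stood at 1742 CPM over shared genes in nuclei and 75.3, 64.1 and 74.0 in cells, and rose in marginal cells by 2.79 ± 0.26 on the log2 scale (adjusted p = 8.7e-11, edgeR). Its annotation spans 2960900 bases and covers many other genes, among them Oat, which had 0 UMIs in the nucleus capture and 2894 in the cell captures. The share of Fgfr2 UMIs that belongs to such genes was not tested. Bmpr1b, a bone morphogenetic protein receptor, stood at 1121 CPM in nuclei and 181, 169 and 197 in cells, and rose by 3.29 ± 0.20 (adjusted p = 7.1e-16, edgeR). Hgf, the ligand of the Met receptor of intermediate cells, stood at 298 CPM in nuclei and 35.2, 72.9 and 66.6 in cells, and rose by 4.60 ± 0.38 (adjusted p = 3.3e-12, edgeR). Erbb4, a neuregulin receptor, stood at 134 CPM in nuclei and 0, 2.91 and 2.47 in cells, too low for a test in cells. Met itself, which the rule used against marginal nuclei, was lower in them. Over the list without Met, edgeR called 6 of 13 tested genes higher and 3 lower in marginal cells, beside 16.9% and 16.8% of all tested genes. In nuclei 2 of its genes were at most 0.5 times the level of intermediate nuclei, beside 12.9% of all genes.

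Of the 28 transcription factors listed for the otic epithelium, 17 had at least 50 UMIs in marginal nuclei, and 3, Dlx5, Foxi1 and Elf5, were at 0. Of the 17, 14 were at least 2 times higher than in intermediate nuclei, beside 18.4% of all genes. Only 2 of the 28 reached 50 UMIs in intermediate nuclei, so that most of the 17 entered through marginal nuclei and the count is a description. EdgeR called 12 of 14 tested higher in marginal cells and 2, Eya1 and Tbx2, lower, beside 16.9% and 16.8% of all tested genes. Lmx1a, a LIM homeobox gene, stood at 1030 CPM in marginal, 17.5 in intermediate and 77.4 in basal nuclei, and rose in marginal cells by 3.92 ± 0.24 on the log2 scale (adjusted p = 6.9e-16, edgeR). Pax2, a paired box gene of the early ear, stood at 322, 5.48 and 116 CPM. Gata3, whose human counterpart causes deafness with hypoparathyroidism and renal disease, stood at 210, 8.77 and 0 CPM. Hmx2, a homeobox gene of the inner ear, stood at 139, 12.1 and 0 CPM. Over shared genes Lmx1a was the one of these 4 better seen in nuclei, at 1055 CPM against 141, 149 and 133 in cells, while Gata3 stood at 215 CPM against 311, 165 and 220.

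Of the 16 nuclear receptors and coactivators other than Esrrb with at least 50 UMIs, 4 were at least 4 times the highest cell capture, beside 12.7% of all shared genes. In nuclei 1 was at least 2 times higher than in both other classes, beside 5.04%. EdgeR called 3 of 14 tested higher and 2 lower in marginal cells, beside 16.9% and 16.8%. Among these genes, Esrrg, the closest relative of Esrrb with Esrra, stood at 647 CPM in marginal, 138 in intermediate and 0 in basal nuclei. Over shared genes it stood at 663 CPM in nuclei and 10.0, 18.9 and 17.3 in cells, 35.0 times the highest capture, and it had too few UMIs for a test in cells. Esrra stood at 101 CPM in nuclei and 115, 112 and 98.7 in cells. Nr3c2, the mineralocorticoid receptor, stood at 384 CPM in nuclei against 15.1, 18.9 and 17.3 in cells, and was highest in basal nuclei at 761 CPM on the scale of all genes, beside 375 in marginal nuclei. Rora stood at 2384 CPM in nuclei and 115, 111 and 136 in cells, and was lower in marginal than in other cells by edgeR, at -0.39 ± 0.15 on the log2 scale (adjusted p = 0.043), although it was 2.00 times higher in marginal than in intermediate nuclei.

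Esrrb binds DNA as a monomer at an extended AGGTCA site, here searched as TCAAGGTCA on both strands of the promoters, from 250 bases before to 50 after a start. The promoter table matched 347 of the 463 genes at least 2 times higher than in both other classes, so that the others, Kcne1 and Kcnq1 among them, were not searched. The study selected Abcg1, Heyl and Atp13a5 as Esrrb targets from motif enrichment, a different measure from these exact letters. The promoter table had no entry for Abcg1 and Heyl. The letters were found in promoters of 0.466% of 27025 genes, 0.259% of 6961 genes with at least 50 UMIs in marginal nuclei, and 0.576% (2 of 347) of these marginal genes. The shorter AAGGTCA, which lies within the longer motif, was found for 5.38%, 3.72% and 5.76% (20 of 347). The shares of the marginal genes lie near those of all promoters. They lie above the 0.259% and 3.72% of genes with at least 50 UMIs, from which the marginal genes were drawn. The longer motif rests on 2 genes, and the differences were not tested. The 2 genes with the longer motif were Sgk1, which has 2 starts with it, and Atp13a4, a P5-type ATPase related to Atp13a5 that was named because of this match and stood at 92.3 CPM in marginal, 3.84 in intermediate and 0 in basal nuclei. Their promoters are shown from RefSeq on GRCm38.p6, in the direction of the gene, with the match in capitals (the complement, TGACCTTGA, where it lies on the other strand). They are at chr10:21978422-21978721 and chr10:21985854-21986153 on the plus strand and chr16:29544815-29545114 on the minus strand, and no binding was measured.
Sgk1, first start: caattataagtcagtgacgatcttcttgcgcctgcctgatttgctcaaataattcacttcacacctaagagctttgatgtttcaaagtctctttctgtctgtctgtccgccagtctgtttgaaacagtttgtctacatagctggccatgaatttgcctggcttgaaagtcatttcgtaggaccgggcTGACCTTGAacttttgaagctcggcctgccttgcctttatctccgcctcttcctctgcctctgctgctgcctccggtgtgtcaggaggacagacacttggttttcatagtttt
Sgk1, second start: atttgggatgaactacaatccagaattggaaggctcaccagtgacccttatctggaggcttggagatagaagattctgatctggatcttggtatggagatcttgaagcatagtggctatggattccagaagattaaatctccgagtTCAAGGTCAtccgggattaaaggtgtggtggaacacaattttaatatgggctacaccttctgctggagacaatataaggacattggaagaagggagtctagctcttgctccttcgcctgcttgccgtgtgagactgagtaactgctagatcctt
Atp13a4: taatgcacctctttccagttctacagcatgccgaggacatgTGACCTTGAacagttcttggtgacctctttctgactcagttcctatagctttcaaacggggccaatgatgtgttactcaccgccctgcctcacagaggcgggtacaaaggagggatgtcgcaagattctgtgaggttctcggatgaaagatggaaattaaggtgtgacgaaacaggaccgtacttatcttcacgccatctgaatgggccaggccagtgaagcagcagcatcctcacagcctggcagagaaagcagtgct

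Of the 10 genes of the megalin list other than Lrp2 with at least 50 UMIs, 3, Lrpap1, Ank3 and Sorl1, were at least 2 times higher in marginal nuclei than in both other classes, beside 5.04% of all genes. Lrpap1, the chaperone of megalin, stood at 1357 CPM over shared genes in nuclei and 1381, 1160 and 1338 in cells, and rose in marginal cells by 3.16 ± 0.17 on the log2 scale (adjusted p = 1.0e-09, edgeR). Sorl1, a related sorting receptor, stood at 384 CPM in nuclei and 382, 404 and 444 in cells. Both were thus at about the same level in nuclei and cells. Cubn, the partner of megalin in the kidney, had 9 UMIs in marginal nuclei and 0 in marginal cells, and its co-receptor Amn also stayed under 50 UMIs.

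Calcium pumps and release channels were described as a list of 19 genes. Itpr2, a calcium release channel of the endoplasmic reticulum, stood at 905 CPM in marginal, 76.2 in intermediate and 77.4 in basal nuclei, and rose in marginal cells by 2.80 ± 0.13 on the log2 scale (adjusted p = 8.3e-19, edgeR). Atp2b1, a plasma membrane calcium pump, stood at 1085, 165 and 232 CPM and rose by 1.95 ± 0.11 (adjusted p = 3.1e-17, edgeR). Of the 9 with at least 50 UMIs in marginal nuclei, 7 were at least 2 times higher than in intermediate nuclei, beside 18.4% of all genes, and 1 of the list, Ryr3, was at most 0.5 times, beside 12.9%. Among junction and polarity genes, 12 of 16 were at least 2 times higher than in intermediate nuclei, beside 18.4% of all genes. Only 5 were at least 2 times higher than in both other classes, beside 5.04%, and 1 of the list was at most 0.5 times the level of intermediate nuclei, beside 12.9%. In cells edgeR called 10 of 15 tested higher and 3 lower, beside 16.9% and 16.8%. Cldn9, a claudin needed for hearing, stood at 348, 47.1 and 64.5 CPM, Epcam at 426, 44.4 and 51.6 CPM, and Pard3b, a polarity gene that spans 1003461 bases, at 1237, 407 and 245 CPM. Pard3b was the most abundant of the list in marginal nuclei and stood at 1267 CPM over shared genes there and at 35.2, 55.4 and 83.9 in cells.

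Gene length went with the ratio of nuclei to cells across the transcriptome. Over 8563 protein-coding genes, the median log2 ratio of marginal nuclei to the mean of the cell captures was -0.79 for genes up to 10 kb from first to last base, -0.24 from 10 to 30 kb, 0.47 from 30 to 100 kb, 1.44 from 100 to 300 kb and 2.89 above 300 kb. Pearson's r of log10 length and log2 ratio was 0.54 and Spearman's rho 0.53 across genes, which share the libraries and are not independent replicates. In the longest class 70.4% of genes were better seen in nuclei, and in the shortest 1.97%. The marginal genes spanned all classes, with 56 above 300 kb, of which 47 were better seen in nuclei, and 39 up to 10 kb, of which 4 were. The part of length in the ratio of any one gene was not tested.

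**Figure D4:**
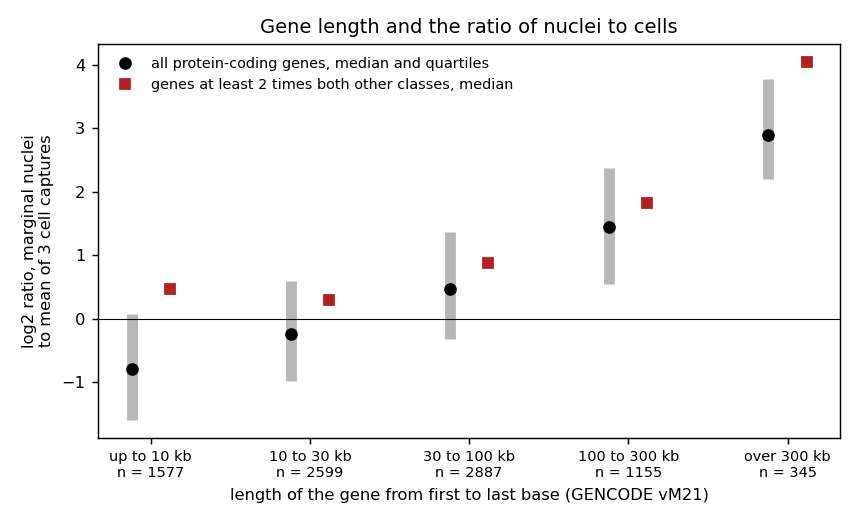
Median log2 ratio of marginal nuclei to the mean of the 3 cell captures by length of the gene, for 8563 protein-coding genes (black, grey bars from the lower to the upper quartile) and for genes at least 2 times higher in marginal nuclei than in both other classes (red). The black medians rise from -0.79 in the shortest to 2.89 in the longest class, and the red medians lie above them in all 5 classes.

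The marginal genes lowest in nuclei by the ratio to the highest cell capture were Ehd3, Hba-a2, Mall, Atp1b2, Hs3st6, Lyrm9, 4833439L19Rik, Prom2, Tuba1c and Rgs4. Ehd3, which acts in endosome recycling, stood at 293 CPM over shared genes in nuclei and 1065, 1224 and 1143 in cells. Rgs4, a brake on G protein signalling, stood at 586 CPM against 1371, 1363 and 1451, and Prom2, a protein of membrane protrusions, at 358 CPM against 748, 901 and 797. All 3 lay below every capture of cells. Hba-a2, an alpha globin, stood at 437 CPM in nuclei and 0, 14.6 and 1550 in cells, so that only capture 3 was above the nuclei. A few nuclei carried much of its level, with 50.9% of its thinned UMIs in the top 1% of marginal nuclei. Cytosolic ribosomal proteins were lower in nuclei for 77 of 81 genes with at least 50 UMIs in cells and 6 of 18 oxidative phosphorylation genes were, beside 10.3% of all such genes. These counts include Rpl13 and Cox4i1, which were at 0 in the nucleus capture and whose level there is not known. The 63 ribosomal protein genes with at least 50 UMIs in nuclei had a median log2 ratio of -3.31. EdgeR called 16 of the 18 oxidative phosphorylation genes higher in marginal than in other cells, beside 16.9% of all tested genes. Of 81 ribosomal protein genes it called 0 higher and 60 lower, beside 16.8% lower of all tested genes. In nuclei 1 of 17 oxidative phosphorylation genes was at least 2 times higher in marginal than in intermediate nuclei, beside 18.4%. The counts in cells and nuclei use different limits and comparison classes and are no contrast of preparations.

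Of the 8 long noncoding RNAs of the list with at least 50 UMIs, the rule gene Malat1 left out, 3 were at least 2 times higher in marginal than in intermediate nuclei, beside 18.4% of all genes, and in cells edgeR called 2 of 3 lower, beside 16.8%. With Malat1 counted, it called 3 of 4 lower. Kcnq1ot1, the imprinted transcript that runs through Kcnq1 on the opposite strand (chr7:143203458-143296549, minus strand, inside Kcnq1 at chr7:143106362-143427042), had 8463 UMIs in marginal nuclei beside 8253 of Kcnq1. It stood at 1892 CPM in marginal, 147 in intermediate and 710 in basal nuclei, but in marginal cells it was lower than in other cells, at -1.36 ± 0.15 on the log2 scale (adjusted p = 3.3e-09, edgeR). The median Malat1 share was lower there too, at 0.957%, 1.07% and 0.928% in marginal cells of captures 1, 2 and 3. Intermediate cells had 2.34%, 4.13% and 2.89% and basal cells 2.51%, 3.49% and 3.50%. The part of this in the Kcnq1ot1 values of cells was not tested. Over shared genes it stood at 1938 CPM in nuclei and 80.4, 93.3 and 71.6 in marginal cells. A second transcript in Kcnq1 on that strand, 4933417O13Rik, stood at 468 CPM in marginal, 5.48 in intermediate and 12.9 in basal nuclei and at 0 in every barcode of the cell captures. Reads of Kcnq1 introns and of these transcripts cannot be told apart without strand. Pvt1 stood at 210, 4.39 and 25.8 CPM, and at 215 CPM over shared genes against 15.1, 5.83 and 4.94 in cells. Of the genes listed for the nucleus capture alone, which took 2.37% of UMIs, Mir99ahg stood at 1602, 1434 and 1626 CPM and did not separate the classes, whereas 4930511M06Rik stood at 457, 17.5 and 51.6 CPM.

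The share of nuclei with a UMI differed widely between the marginal genes. After thinning each barcode to 500 UMIs of shared genes, which left out no barcode, Lrp2 had a UMI in 89.1% of marginal nuclei and in 69.2%, 68.1% and 72.1% of marginal cells of captures 1, 2 and 3. In nuclei with blood lineage transcripts, where marginal genes were not limited, the share was 21.4%, at a median of 1637 UMIs. It was 16.5% in intermediate nuclei. Kcnq1 had a UMI in 60.3% of marginal nuclei, 3.85%, 15.04% and 22.1% of marginal cells and 4.37% of the background nuclei. Esrrb had one in 45.4% of nuclei, 23.1%, 23.9% and 23.5% of cells and 3.57% of background. Ror1 had one in 36.9% of nuclei, 3.85%, 0.885% and 2.94% of cells and 0.397% of background. Without thinning the shares in marginal nuclei were 99.7% for Lrp2, 91.5% for Kcnq1, 75.4% for Esrrb and 69.2% for Ror1. In the deeper marginal cells of captures 1, 2 and 3 they were 100% in each for Lrp2, 80.8%, 77.0% and 85.3% for Kcnq1, 88.5%, 87.6% and 80.9% for Esrrb and 23.1%, 11.5% and 17.7% for Ror1. The rule sets the shares of Lrp2, Kcnq1 and Esrrb, but not that of Ror1.

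Cdh18 had a UMI in 87.8% of marginal nuclei at 500 UMIs, in 2.14% of intermediate nuclei, in 3.57% of background nuclei and in none of the 207 marginal cells. Cacnb2 had one in 91.1% of marginal nuclei, 2.76% of intermediate nuclei, 5.95% of background nuclei and 3.85%, 3.54% and 1.47% of marginal cells. Both genes were thus seen in more marginal nuclei than Kcnq1. At 1000 UMIs Cacnb2 was in 97.5% of marginal nuclei and 19.2%, 11.5% and 5.88% of marginal cells, and without thinning in 98.6% and in 53.9%, 44.3% and 25.0%. Spag5 had one in 29.9% of marginal, 12.8% of intermediate and 13.9% of background nuclei, and in no marginal cell. Kcne1 went the other way, with 35.5% of marginal nuclei, 11.5% of background nuclei and 61.5%, 56.6% and 58.8% of cells.

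Blood genes, Ttr and a few secreted products varied most among marginal nuclei. After thinning to 1000 UMIs outside mitochondrial genes, which kept 2689 nuclei, the Fano factor (variance over mean) had a median of 1.04 over 3743 genes with a mean of at least 0.05. The 10 largest were those of Ttr, Hba-a1, Hbb-bs, S100a8, S100a9, Hba-a2, Spp1, Hbb-bt, Ptgds and Wfdc18. Without the nuclei marked as doublets 5 of the 10 stayed among the 10 largest, Ttr and S100a9 fell below the mean required, and the Fano factor fell from 64.7 to 1.02 for S100a8, from 10.4 to 2.89 for Hbb-bt, from 16.5 to 5.83 for Hba-a2 and from 125.1 to 59.1 for Hba-a1. Ttr, S100a8 and S100a9 were carried by a few nuclei, with 91.7%, 74.8% and 76.3% of their UMIs in the top 1% of nuclei, and 1 nucleus held 161 UMIs of Ttr. The globin genes were more widespread. Hbb-bs had a UMI in 88.3% of nuclei and Hba-a1 in 63.7%, with 36.7% and 56.4% of their UMIs in the top 1%. Spp1, which encodes osteopontin, had a Fano factor of 11.8 and Ptgds, the lipocalin-type prostaglandin D synthase, 10.1. At least 10 UMIs of Spp1 were in 786 nuclei and at least 10 of Ptgds in 1905. At 500 UMIs, Spp1 had a UMI in 89.7% of marginal, 56.6% of intermediate and 50.4% of background nuclei, and Ptgds in 99.2%, 90.5% and 77.4%, so that the shares with a UMI were high in the background too.

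Spp1 and Ptgds went together from nucleus to nucleus, with a Pearson r of 0.782 over 2689 nuclei, and with r of 0.722, 0.652 and 0.787 over the 26, 113 and 68 marginal cells of captures 1, 2 and 3. Dnase1, a secreted nuclease picked after its values were seen, had an r of 0.706 with Spp1 and 0.683 with Ptgds in nuclei. The points of one capture share a library and its free RNA, and r is given as a description. The sum of the 3 genes ran from at most 19 UMIs in the lower 701 nuclei to at least 44 in the upper 691. Of 645 genes with a thinned mean of at least 0.2, genes with a high r with the sum included Cd81 at 0.661, Atp1b2 at 0.485, Psap at 0.469 and Lrp2 at 0.453, and those with the lowest were Malat1 at -0.276, Dclk1 at -0.251, Cdh18 at -0.223 and Cacnb2 at -0.207. In marginal cells of captures 1, 2 and 3 r with the sum was 0.493, 0.400 and 0.590 for Cd81 and -0.275, -0.281 and -0.301 for Dclk1, but 0.322, 0.162 and -0.003 for Malat1 and 0.197, -0.080 and -0.057 for Cacnb2. For Lrp2 it was 0.566, 0.511 and 0.359. For Atp1b2 it was 0.280, 0.203 and 0.042, and for Psap 0.288, 0.015 and 0.184. Kcnq1 stood at -0.090 and Esrrb at -0.055. Mean Cdh18 was 6.56 UMIs per 1000 in the lower and 4.13 in the upper nuclei. The median mitochondrial share was 1.31% in the lower and 4.92% in the upper nuclei, and the median depth 1431 and 1676 UMIs. The part of mitochondrial share and depth in this pattern was not tested. The genes named for their r in this paragraph were chosen after their values were seen.

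**Figure D5:**
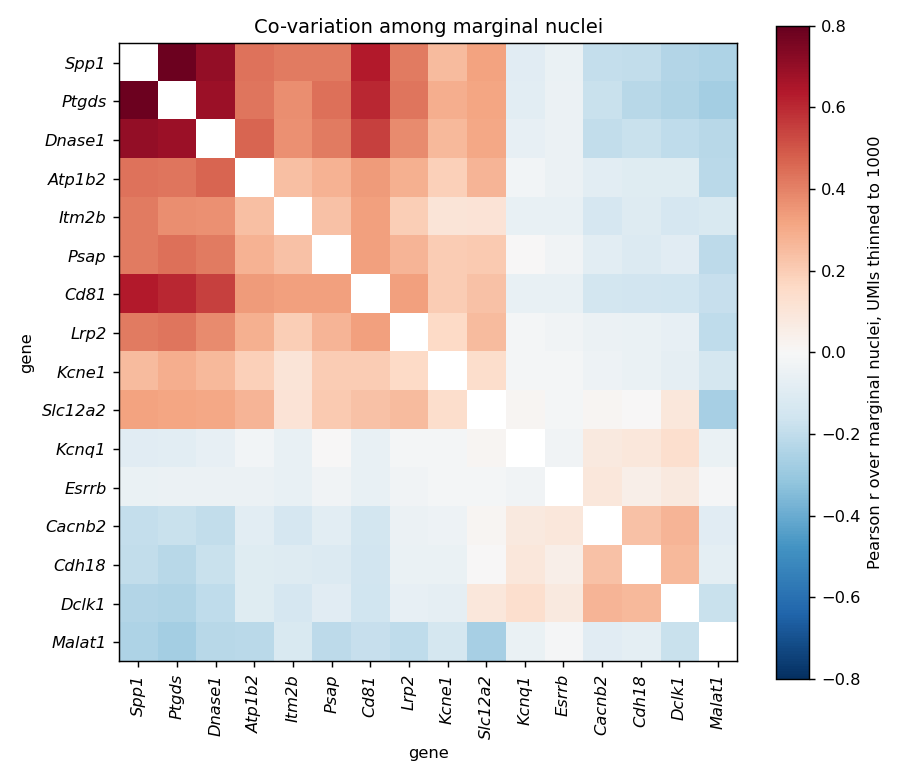
Pearson r between pairs of 16 genes over 2689 marginal nuclei thinned to 1000 UMIs (red positive, blue negative, diagonal left blank). Spp1, Ptgds and Dnase1 form a red block with Cd81. Kcnq1 and Esrrb lie between -0.089 and 0.132 with all others, and Cacnb2, Cdh18 and Dclk1 are weakly positive with each other and negative with Spp1, Ptgds and Dnase1.

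A small set of members carried other transcripts. In 33 nuclei at least 3 thinned UMIs came from Dkk2 and Col8a1, genes picked after their values were seen, and these nuclei held 76.8% of the UMIs of both genes. Slc26a7, an anion transporter listed as a marker of Reissner's membrane, had a mean of 1.67 UMIs per 1000 in them and 0.00941 in the other members, and Vmo1 of the same list 0.727 and 0.00904, whereas Kcnn2 and Itga8 of that list had none in the 33. Lrp2 was similar, at 4.455 and 4.806 UMIs per 1000, while Kcnq1 was 0.788 and 1.89, Esrrb 0.303 and 1.37, and Cdh18 1.30 and 5.58. The rule, in which Lrp2 alone can meet the limits, takes them in. Without them 466 genes in place of 463 were at least 2 times higher than in both other classes, 462 of them shared.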

How the data were processed

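The libraries were 10x Genomics Chromium libraries. The values deposited by the authors are unnormalized UMI counts of genes in barcodes, 1 matrix a capture, from reads aligned to mm10. Cell Ranger 2.0.0 is named in the submitters' processing notes. The study's methods name default settings, and use of introns or strand is not given in the sources used here. The deposited list of the nucleus capture held 20943 genes beyond those shared with the cells. Members and gene lists were chosen with earlier results of these data known.

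Counts were summed per class and given as CPM with exact 95% Poisson or binomial intervals. Doublets were scored with Scrublet in scanpy 1.11.5 and left in, except in an alternative. Whole-cell counts (9 sums) were tested with edgeR 4.0.16 (R 4.3.3, TMM, filterByExpr, robust quasi-likelihood, Benjamini-Hochberg), with the capture as a replicate block, since the classes of a capture come from 1 suspension. Their deviations correlated between 0.0662 and 0.230. The captures are separate suspensions. The study's supplement gives the number of mice for each cell capture, and its methods also give another total. Whether captures shared animals is not stated in either. In simulated sums over 7842 genes, edgeR called 42 of 97 genes with a 2-fold and 86 of 91 with a 4-fold difference, besides 8 false calls. The simulated sums had 1 common profile, a fixed dispersion and no capture effect, so these counts do not give the error rate in the real sums. Gene positions came from GENCODE vM21 on mm10.

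Genes were named from 24 fixed lists and by rule: the 15 largest ratios to other nuclei, the 15 largest and 10 lowest ratios to cells, the 10 largest Fano factors, and the 5 genes with the most UMIs on the nucleus list alone. Of these, mt-Rnr2 is mitochondrial and has no CPM. Alternatives were other limits of the rule, doublet removal, thinning, TMM or other totals, DESeq2 1.42.0, no replicate block and each capture left out. Authors' aggregation and clusters were not used here, and some genes are not reported here.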

Additional observations from a re-analysis of the deposited data

Results flagged for a closer look

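Kcnq1ot1 stood higher in marginal nuclei than in the other classes of nuclei, at 1892 CPM against 147 in intermediate and 710 in basal nuclei, but lower in marginal whole cells, with an edgeR log2 fold change of -1.36 (adjusted p = 3.3e-09). The median Malat1 share of marginal cells, 0.957%, 1.07% and 0.928% in captures 1, 2 and 3, was also the lowest of the 3 classes. It was 2.34%, 4.13% and 2.89% in intermediate cells and 2.51%, 3.49% and 3.50% in basal cells. Arl3, a small GTPase of cilia that was picked after its values were seen, stood at 267 CPM in marginal, 81.1 in intermediate and 103 in basal nuclei, with an edgeR log2 fold change of -0.60 in marginal cells (adjusted p = 0.0054), a call lost by DESeq2, without replicate 2 and without replicate 3. They were the 2 of 366 tested marginal genes that edgeR called lower in marginal cells. Tested genes without a call were not compared for direction. The difference between preparations was itself not tested, since the nuclei are 1 library.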

How the results depend on the processing

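The 2809 members ranged from 1978 to 3082 under other limits of the rule and doublet removal, and fell to 1509 with a mitochondrial share under 2%, a limit added, like the 3 others below marked so, after the data were seen. The 463 genes higher than in both other classes numbered 322 to 540 under the other settings, 235 with that mitochondrial limit (added), of which 216 were shared, and 1695 against intermediate nuclei alone (added). Basal nuclei, at 48, put the floor at 38.7 CPM, so that a gene needed 77.4 CPM to pass. The 1135 genes better seen in nuclei were 595 at 200 UMIs, 247 among genes with no overlapping gene (added), 1509 over all shared genes with mitochondrial ones, and 1028 to 1327 with each capture left out. The 1322 genes higher in marginal cells were 796 to 1311 with each capture left out, the lowest without replicate 2, with 893 by DESeq2 and 1269 with no replicate block. The 1315 lower genes were 758 by DESeq2 and 686 without replicate 2. At 1000 UMIs the shares of nuclei with a UMI rose to 98.3% for Lrp2, 83.5% for Kcnq1, 65.3% for Esrrb and 57.3% for Ror1. The share of promoters with a motif was 0.576% for the longer and 5.76% for the shorter letters. Hba-a2 turned, from 0.837 times the mean of the captures to 1.16 over all shared genes, 0.558 to 59.9 with each capture left out, the highest without replicate 3, and 1.20 with the mitochondrial limit, and capture 3 held nearly all its UMIs in cells. Arl3 lost its call by DESeq2, without replicate 2 and without replicate 3. Without the 243 members marked as doublets, Ttr and S100a9 fell below the mean that was required and S100a8 to a Fano factor of 1.02. No paired analysis was possible because nuclei and whole cells came from different suspensions. With 1 nucleus library, spread between animals is unknown.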
